A study of Homo sapiens with 30 samples.

Results

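The genes described here are 40 genes of mitosis, the division of the duplicated chromosomes between daughter cells. They were chosen by name, as rows whose gene symbol equals a listed member in both deposited count tables. The rule uses no measured value, though the list was drawn up with earlier results of these data known. All 40 were found in both tables, which hold 58288 and 20073 genes, and all 40 passed the filter on low counts, as did 19629 and 19399 genes in all. By role they are 6 entry kinases and cyclins, 1 transcription factor (FOXM1), 4 subunits of the chromosomal passenger complex, 5 spindle checkpoint genes, 3 partners or substrates of the anaphase-promoting complex, 6 centromere and kinetochore genes, 7 spindle motors and microtubule proteins, 6 genes of the central spindle and cytokinesis, and 2 genes of chromosome structure and surface (TOP2A and MKI67).

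A cell enters mitosis when CDK1 becomes active with cyclin B, helped by the kinases PLK1 and AURKA. Kinetochores then bind spindle microtubules, and the spindle checkpoint holds back the anaphase-promoting complex with its activator CDC20 until every chromosome is attached. Once released, that ubiquitin ligase marks securin (PTTG1) and cyclin B for destruction, the chromatids part, and the central spindle and a contractile ring divide the cell. Most of these genes are transcribed late in the cell cycle, which is why their summed RNA in a culture is commonly read as a sign of how many cells are cycling. In bulk RNA, fewer cells in mitosis and less RNA per cell cannot be told apart.

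RNA was sequenced from UMUC1, an established human bladder cancer line that has lost the function of UTX, a histone H3 lysine 27 demethylase encoded by KDM6A. In the first experiment the cells carried a pSIN-puro vector with UTX, with HEAA (UTX with H1146A and E1148A, changes in its catalytic site) or with nothing (EV, empty vector). Each was grown in sphere medium (UTX_sphere, HEAA_sphere and EV_sphere) and in full medium (UTX_full, HEAA_full and EV_full). Sphere medium was MEM without serum, supplemented with B27 (free of vitamin A) and the growth factors FGF2 and EGF (20 ng/ml each), and full medium was MEM with 10% fetal bovine serum. In the second experiment every group carried a pBabe-puro vector for FGFR3, a receptor tyrosine kinase, in its S249C form or as wild type. Those cells also carried pCDH-blasticidin with UTX or empty, which gave UTX_FGFR3S249C, EV_FGFR3S249C, UTX_FGFR3WT and EV_FGFR3WT. There were 3 libraries in each of the 10 groups, 30 in all, harvested on day 3. Nothing in the labels says that the 3 came from different cultures, and p-values therefore reflect the spread among these libraries only, which may be technical.

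Libraries of the first experiment held 23749352 to 40111234 counts, and those of the second 21672408 to 28290664. Levels are CPM, counts scaled to a common library total with TMM factors, and fold changes and adjusted p-values come from edgeR's quasi-likelihood test over all genes with Benjamini-Hochberg adjustment, with 0.05 as the threshold. CPM does not correct for gene length, so levels are compared between samples and not between genes. KDM6A, the gene of the introduced UTX, averaged 861 ± 14.9 CPM in UTX_sphere, 943 ± 15.3 in HEAA_sphere and 8.18 ± 0.784 in EV_sphere, and 579 ± 12.7 in UTX_full, 694 ± 7.34 in HEAA_full and 17.4 ± 0.745 in EV_full (SD, n = 3 each). In the second experiment KDM6A averaged 862 ± 141 CPM in UTX_FGFR3S249C and 11.6 ± 1.36 in EV_FGFR3S249C, and 824 ± 73.2 in UTX_FGFR3WT and 15.8 ± 1.02 in EV_FGFR3WT (SD, n = 3 each). The counts do not tell UTX from HEAA. HEAA cells had more KDM6A RNA than UTX cells in both media. In UTX over HEAA, the level of the construct and the change in its catalytic site therefore cannot be told apart. FGFR3 averaged 2588 ± 44.3 CPM in UTX_FGFR3S249C and 2322 ± 109.5 in EV_FGFR3S249C, against 1243 ± 47.4 in UTX_FGFR3WT and 1301 ± 74.9 in EV_FGFR3WT (SD, n = 3 each), so the S249C cells carried more FGFR3 RNA. Of 12 urothelial and epithelial markers, 11 averaged at least 1 CPM in every group of the first experiment and 12 did in the second. Of 10 leukocyte, endothelial and fibroblast markers 2 and 3 did. The summed level per library of those tested was 17.6 to 59.7 CPM in the first experiment and 23.9 to 37.3 CPM in the second.

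Many mitosis genes are known to carry a pair of short promoter elements, CCAAT, which the factor NF-Y binds, and the cell cycle genes homology region, whose core TTTGAA is bound by the MuvB complex together with MYBL2 and FOXM1. RefSeq promoter windows (GRCh38.p14, reaching from upstream of each transcription start to just past it) matched 33 of the 40 genes. On either strand, TTTGAA occurred in 25 of these 33 (75.8%), against 4961 of all 27305 genes with such a window (18.2%). CCAAT occurred in 27 of 33 (81.8%), against 39.7% of all, and both occurred in 21 of 33 (63.6%), against 8.37%. Of 20 DNA replication genes with a window 0 held TTTGAA, while 15 held CCAAT (75.0%). The 4 stretches printed here run from 120 bases before to 20 bases after the start, with TTTGAA or CCAAT on either strand in capitals. They are shown because they differ in how the elements are arranged and belong to members that the results turn on. CENPA (chr2:26785936-26786075, + strand) and CCNB2 (chr15:59105026-59105165, + strand) are 2 of those lower in UTX_sphere than in HEAA_sphere. CDC20 (chr1:43358861-43359000, + strand) was lower in UTX than in EV cells in both media, and ANLN (chr7:36389742-36389881, + strand) passed the threshold for sphere over full medium and in no other comparison.
CENPA: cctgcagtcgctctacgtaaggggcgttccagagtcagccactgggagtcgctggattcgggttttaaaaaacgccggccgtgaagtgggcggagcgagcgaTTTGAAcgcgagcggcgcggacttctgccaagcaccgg
CCNB2: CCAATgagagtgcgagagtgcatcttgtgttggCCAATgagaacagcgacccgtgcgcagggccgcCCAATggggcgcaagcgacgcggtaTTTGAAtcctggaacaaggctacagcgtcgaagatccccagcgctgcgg
CDC20: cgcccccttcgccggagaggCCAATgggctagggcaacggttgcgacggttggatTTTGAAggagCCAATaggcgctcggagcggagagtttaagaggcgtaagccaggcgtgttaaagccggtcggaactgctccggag
ANLN: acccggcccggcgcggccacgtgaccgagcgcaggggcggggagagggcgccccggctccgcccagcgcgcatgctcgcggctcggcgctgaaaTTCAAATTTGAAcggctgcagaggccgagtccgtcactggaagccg
In CCNB2 the single TTTGAA starts 29 bases before the transcription start, and 3 CCAAT copies in the stretch precede it. In CDC20 a TTTGAA lies between 2 CCAAT copies, and in ANLN the element appears on both strands side by side with no CCAAT in the window. A match of letters is a description of the window, not a mapped site, and no binding data were analysed here.

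Over the whole set, the summed level of the 40 genes was 6006, 5560.4 and 5770.1 CPM in UTX_sphere, 6487, 6693 and 6433 in HEAA_sphere and 6174, 6018 and 6337 in EV_sphere. The UTX_sphere libraries were below all 3 HEAA_sphere libraries and, by a narrow margin for UTX_sphere replicate 1, below all 3 EV_sphere libraries. Without the 5 members of highest level, the sum was 3920.2, 3643 and 3784 CPM in UTX_sphere, 4313, 4399.5 and 4268 in HEAA_sphere and 4060.2, 3899 and 4121 in EV_sphere. There UTX_sphere and EV_sphere overlapped and UTX_sphere and HEAA_sphere did not. Both sums include BUB3, which was higher in UTX than in EV cells by 0.99 log2 units in sphere medium and 1.01 in full medium. Sums without BUB3 were not computed, so its part in these overlaps was not tested. In full medium the sum over all 40 genes was 7402, 7125 and 6738 CPM in UTX_full, 7119, 7072 and 7164 in HEAA_full and 6942, 6971 and 6948 in EV_full. There the UTX_full libraries spanned the widest range, with replicate 3 below and replicate 1 above every other full medium library. In the second experiment it was 7659.5, 7533 and 6973 CPM in UTX_FGFR3S249C and 7745, 7821 and 7734 in EV_FGFR3S249C, and 7457, 7424 and 7389.7 CPM in UTX_FGFR3WT and 7845, 7650.1 and 7873 in EV_FGFR3WT. Both UTX groups lay below their EV groups without overlap. The lowest of these was UTX_FGFR3S249C replicate 3, which stood apart from the other 2 libraries of its group. All members of a library are measured in the same cells, so the number of members called in a comparison is not a number of independent observations.

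**Figure D1:**
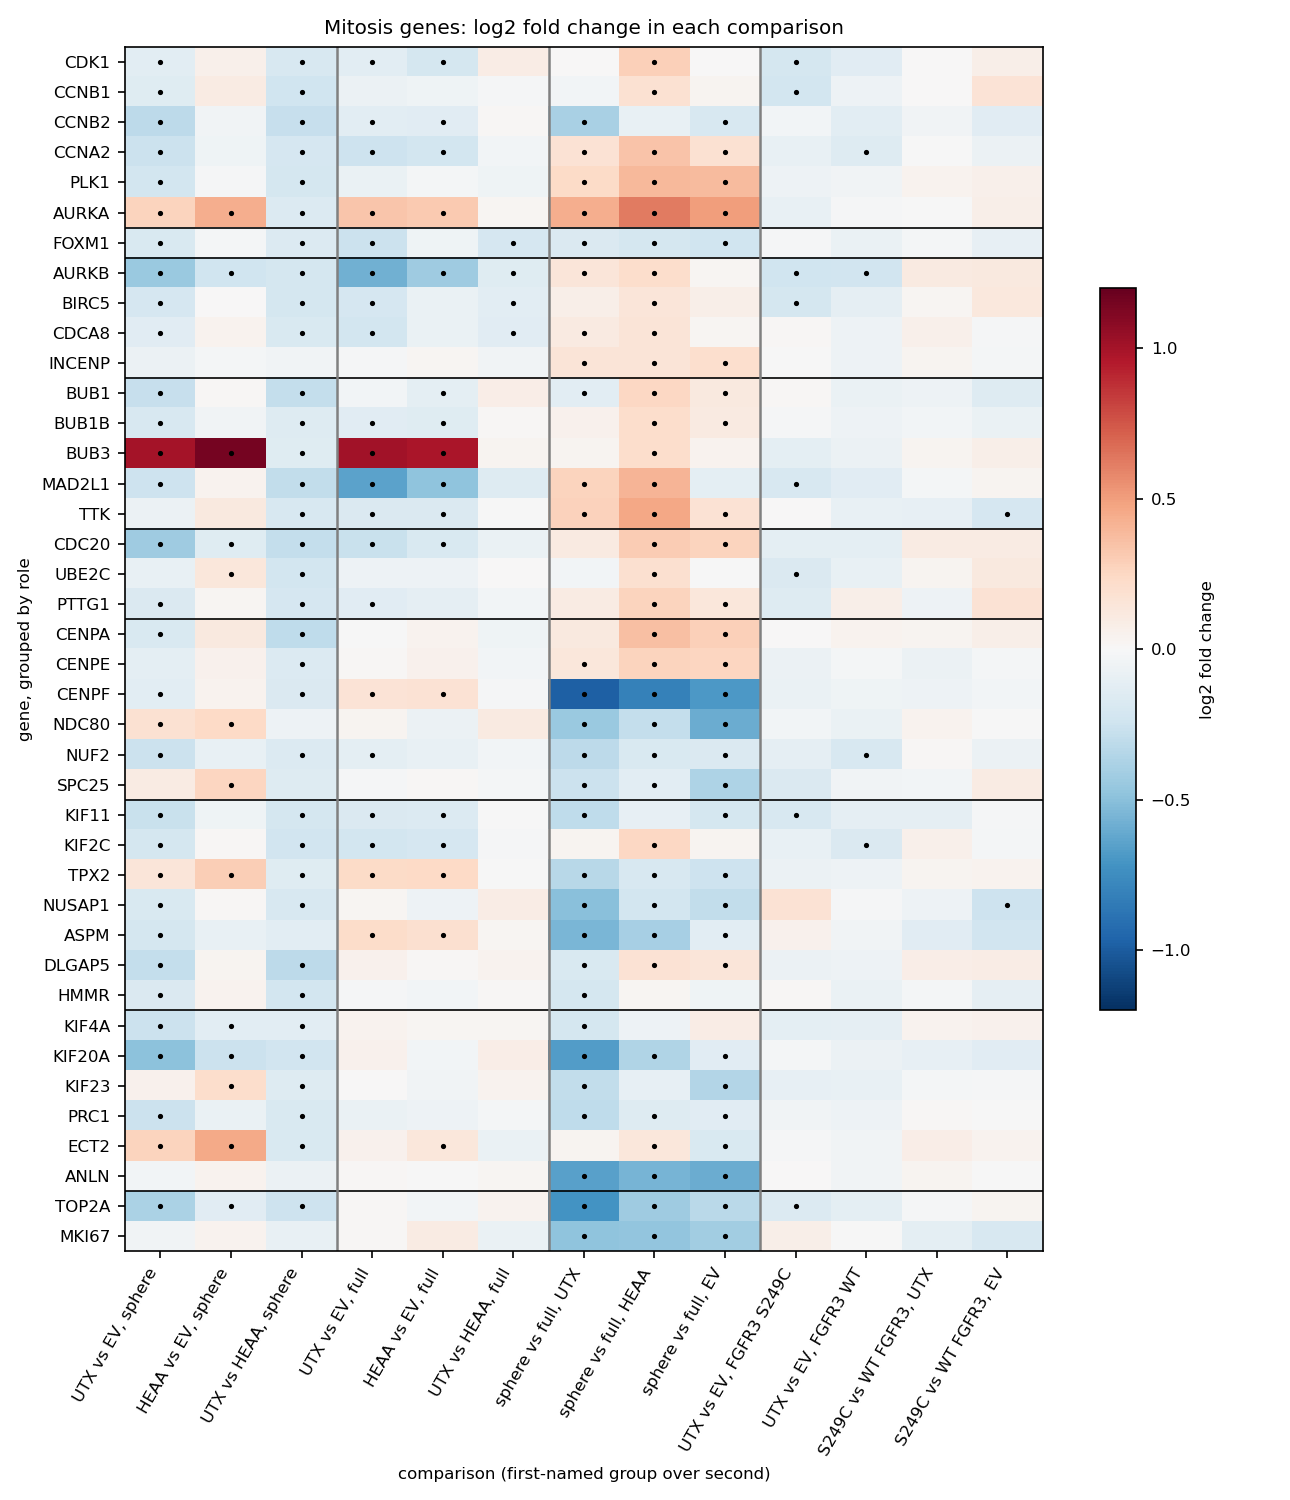
Colours give the log2 fold change of each of the 40 mitosis genes (rows, grouped by role) in 13 comparisons (columns, first-named group over second), and dots mark an edgeR adjusted p under 0.05. BUB3 stands out in the 4 comparisons with EV of the first experiment, UTX over HEAA in sphere medium is blue in 34 rows with a dot, and the columns of the second experiment are pale. In the sphere over full columns at least 20 small changes turn to the other direction when libraries are scaled by total counts alone.

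UTX cells and cells with its catalytic-site mutant differed across most of the set in sphere medium. Of the 40 genes, 34 were lower in UTX_sphere than in HEAA_sphere and 0 were higher, with a median log2 fold change of -0.19. Over all genes tested, 11.2% were lower and 8.87% higher, with a median of 0.0012. No library of one group overlapped the other for 35 of the 40 members, but the share of all genes without overlap was not computed. The changes were small and alike, from -0.31 for DLGAP5 to -0.13 for KIF4A among the 34. The KIF4A call was lost without HEAA_sphere replicate 1 or 2 or UTX_sphere replicate 2. The 6 that missed the threshold were INCENP, NDC80, SPC25, ASPM, ANLN and MKI67, with values from -0.15 (SPC25) to -0.046 (INCENP). By role, all 6 entry kinases and cyclins, FOXM1, all 5 checkpoint genes and all 3 anaphase-promoting complex genes were lower, as were 6 of 7 spindle genes, 5 of 6 central spindle genes, 4 of 6 kinetochore genes 3 of 4 passenger complex subunits and TOP2A. Leaving out 1 library at a time gave 29 to 36 lower members, and DESeq2 gave 36.

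DLGAP5, which stabilises kinetochore microtubules, had 61.8, 59.1 and 59.4 CPM in UTX_sphere, against 72.7, 78.5 and 73.1 CPM in HEAA_sphere (log2 fold change -0.31 ± 0.058 SE, edgeR adjusted p = 0.000604). All 3 UTX_sphere values lay below all 3 HEAA_sphere values. CENPA (ENSG00000115163, chromosome 2), the histone H3 variant that marks centromeres, had 27.9, 24.3 and 27.4 CPM in UTX_sphere, against 32.2, 33.5 and 32.6 CPM in HEAA_sphere (log2 fold change -0.30 ± 0.053 SE, edgeR adjusted p = 0.000359). The groups did not overlap. MAD2L1 (ENSG00000164109), the checkpoint protein that sequesters CDC20, had 61.0, 53.8 and 54.1 CPM in UTX_sphere, against 69.6, 69.6 and 68.6 CPM in HEAA_sphere (log2 fold change -0.30 ± 0.061 SE, edgeR adjusted p = 0.00149). Here UTX_sphere replicate 1 lay closest to the HEAA_sphere libraries, which were within about 1 CPM of each other. BUB1, a kinase that recruits checkpoint proteins to kinetochores, had 123, 115 and 122 CPM in UTX_sphere, against 146, 149 and 143 CPM in HEAA_sphere (log2 fold change -0.29 ± 0.048 SE, edgeR adjusted p = 0.000223). These again did not overlap.

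The other members followed with small values, given here by role for UTX over HEAA in sphere medium (log2 ± SE). Among the cyclins and kinases, the mitotic cyclins CCNB2 and CCNA2 were at -0.28 ± 0.052 and -0.20 ± 0.052, PLK1 at -0.21 ± 0.048 and AURKA at -0.17 ± 0.040. Of the checkpoint genes, the kinase TTK was at -0.19 ± 0.053 and BUB1B, which encodes BUBR1, an inhibitor of CDC20, at -0.15 ± 0.047. Of the genes around the anaphase-promoting complex, CDC20 was at -0.28 ± 0.049, UBE2C at -0.22 ± 0.043 and securin (PTTG1) at -0.20 ± 0.052. At the kinetochore, CENPE, a motor that brings chromosomes to the spindle equator, was at -0.17 ± 0.052 and NUF2 at -0.17 ± 0.054. Of the spindle genes, the motor KIF11 was at -0.21 ± 0.045, KIF2C at -0.23 ± 0.042 and HMMR, a centrosomal microtubule-binding protein, at -0.22 ± 0.049. Of the central spindle genes, KIF23, a kinesin of the centralspindlin complex, was at -0.16 ± 0.045 and PRC1, which bundles antiparallel microtubules, at -0.18 ± 0.037. All of these were called lower, but without UTX_sphere replicate 2 the calls of BUB1B, CENPE and NUF2 were lost, without HEAA_sphere replicate 2 those of BUB1B and CENPE, and without UTX_sphere replicate 3 that of BUB1B.

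In full medium few members passed in the same comparison. Of the 40 genes, 4 were lower in UTX_full than in HEAA_full and 0 were higher (over all genes, 12.4% lower and 8.95% higher), with a median of -0.0085. The 4 were FOXM1, a forkhead factor that drives late cell cycle transcription, and 3 passenger complex genes, AURKB, BIRC5 and CDCA8. FOXM1 had 119, 116 and 110.3 CPM in UTX_full, against 131, 131 and 135 CPM in HEAA_full (log2 fold change -0.20 ± 0.043 SE, edgeR adjusted p = 0.00168). All UTX_full values were below all HEAA_full values. AURKB changed by -0.15 ± 0.049, CDCA8 by -0.14 ± 0.047 and BIRC5 by -0.13 ± 0.044 (log2 ± SE), and none of these 3 calls was kept without HEAA_full replicate 2, without HEAA_full replicate 3 or without UTX_full replicate 3, where 1 member was lower. The lower count was 2 without HEAA_full replicate 1 or UTX_full replicate 2, and without UTX_full replicate 3 also 1 member was called higher.

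The difference between media was tested as an interaction, a comparison added after the values had been seen. Of the 40 genes, 10 had a UTX over HEAA ratio that was lower in sphere than in full medium and 0 a higher one (over all genes, 2.15% and 3.36%). The largest were BUB1 (log2 difference -0.37 ± 0.067 SE), DLGAP5 (-0.35 ± 0.081), KIF20A (-0.31 ± 0.065) and TOP2A (-0.30 ± 0.058), each with an edgeR adjusted p of 0.0116 or less. The other 30 did not pass. The median over the 40 was -0.17, against 0.016 over all genes, and 39 of 40 values were negative. This count leaned on single libraries, with 22 lower members without UTX_full replicate 3, 18 without UTX_sphere replicate 1 and 8 without UTX_full replicate 1, and DESeq2 gave 17.

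**Figure D2:**
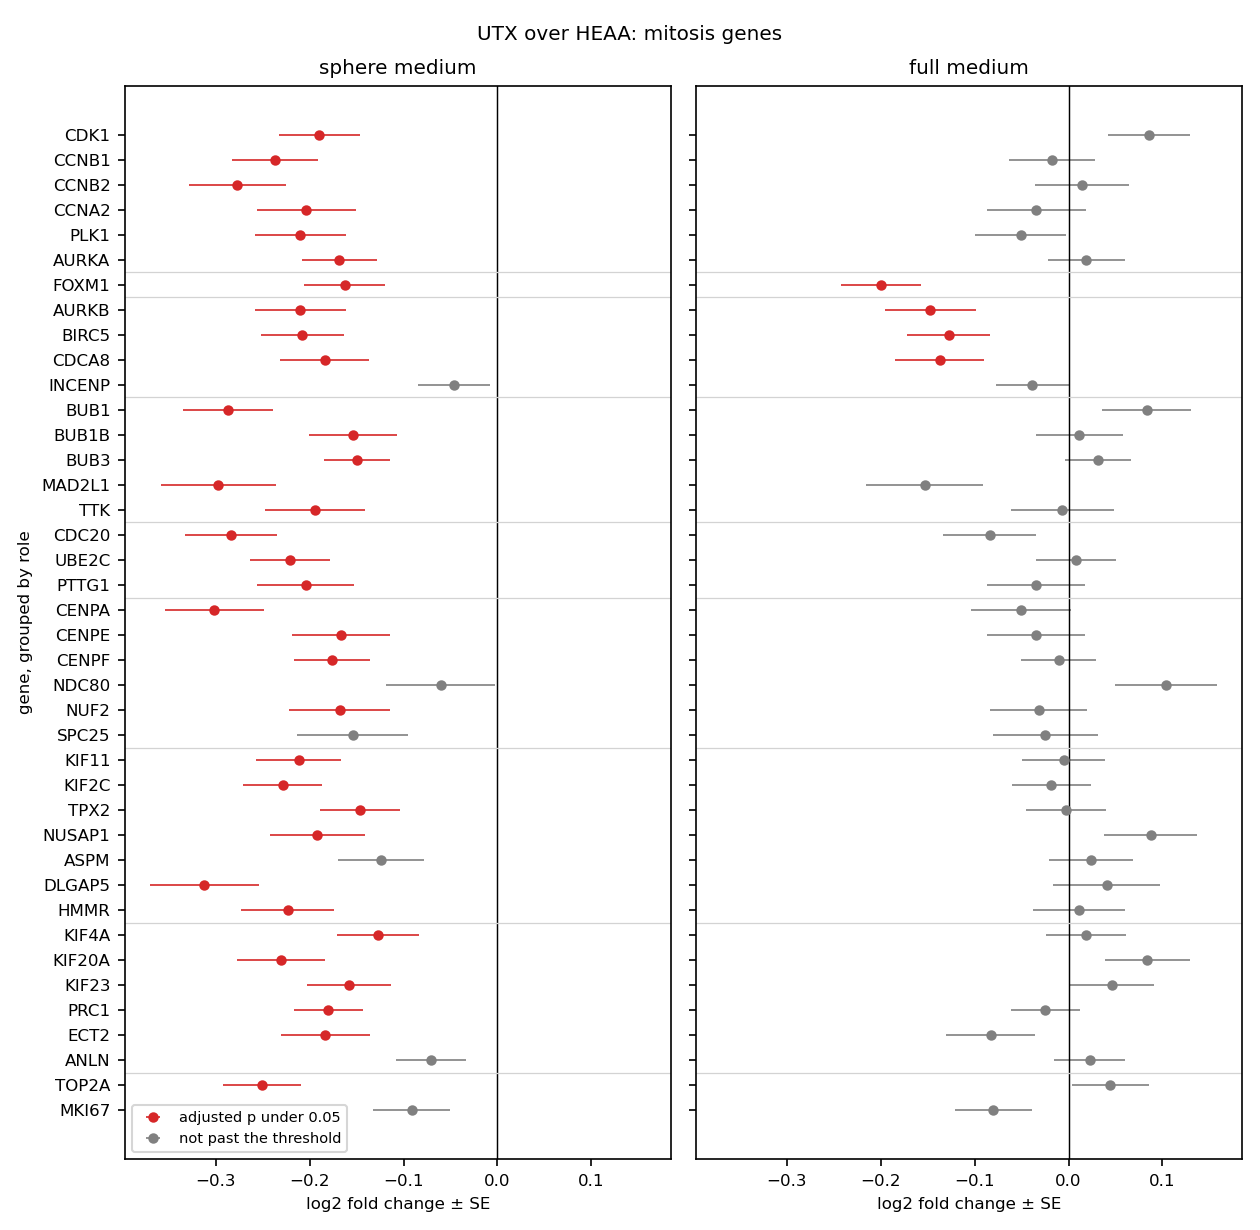
Points give the log2 fold change of UTX over HEAA ± SE for each of the 40 genes (rows, grouped by role), in sphere medium (left) and full medium (right), with red where the edgeR adjusted p was under 0.05. In sphere medium 34 genes are red and all points lie left of 0, while in full medium the points scatter around 0 and 4 are red.

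Against the empty vector in sphere medium, most of the set was lower with UTX, which was not the case with HEAA. In UTX_sphere 27 of 40 genes were lower than in EV_sphere and 5 were higher, with a median of -0.18. In HEAA_sphere 5 were lower than in EV_sphere and 8 higher, with a median of 0.029. Over all genes, 25.6% were lower and 22.8% higher for UTX, and 21.5% lower and 19.9% higher for HEAA. Both comparisons share the EV_sphere libraries. Scaling by total counts alone gave 15 lower and 7 higher for UTX, and 2 lower and 22 higher for HEAA. For HEAA the lower count was 2 without EV_sphere replicate 3 or HEAA_sphere replicate 3 and 3 without HEAA_sphere replicate 1, and for UTX the higher count was 3 without UTX_sphere replicate 1.

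By role, UTX_sphere over EV_sphere had 5 of 6 entry genes lower (median -0.18), 3 of 4 passenger complex subunits (-0.17), 3 of 5 checkpoint genes (-0.19), 2 of 3 anaphase-promoting complex genes (-0.18), 3 of 6 kinetochore genes (-0.12), 6 of 7 spindle genes (-0.21) and 3 of 6 central spindle genes (-0.14). The entry, checkpoint, kinetochore, spindle and central spindle genes each had 1 gene higher. Over all genes, 25.6% were lower and 22.8% higher. In UTX_full over EV_full, which is described further on, the 6 central spindle genes had 0 calls (median 0.031, values from -0.084 to 0.053), while 3 of 4 passenger complex subunits were lower (-0.21). Also lower there were 3 of 6 entry genes, 3 of 5 checkpoint genes and 2 of 3 anaphase-promoting complex genes. The entry and checkpoint genes each had 1 higher. Spindle genes had 2 lower and 2 higher, and kinetochore genes 1 lower and 1 higher. Over all genes, 29.2% were lower and 28.4% higher in full medium.

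KIF20A (ENSG00000112984), a kinesin of the central spindle needed for cytokinesis, moved most among the genes that were lower. It had 107, 93.5 and 99.0 CPM in UTX_sphere, 115, 119 and 118 in HEAA_sphere and 143, 137 and 141 in EV_sphere. The 3 groups formed 3 steps without overlap, with UTX_sphere lowest. The log2 fold change over EV_sphere was -0.49 ± 0.047 SE for UTX (edgeR adjusted p = 1.33e-08) and -0.26 ± 0.046 SE for HEAA (edgeR adjusted p = 8.93e-05). AURKB (ENSG00000178999), the kinase of the chromosomal passenger complex that corrects faulty attachments, had 55.1, 51.2 and 52.3 CPM in UTX_sphere, 61.9, 59.1 and 62.2 in HEAA_sphere and 74.2, 67.6 and 74.6 in EV_sphere. It showed the same order of groups without overlap, at -0.45 ± 0.048 for UTX and -0.24 ± 0.047 for HEAA over EV_sphere. CDC20 had 135, 128 and 129 CPM in UTX_sphere, 167, 150.5 and 159 in HEAA_sphere and 182, 164 and 181 in EV_sphere. UTX_sphere stood clear of both other groups (log2 fold change -0.43 ± 0.049 SE, edgeR adjusted p = 1.87e-07), while HEAA_sphere and EV_sphere overlapped and the HEAA change of -0.15 ± 0.048 lost its call without EV_sphere replicate 1 or 3 or HEAA_sphere replicate 2 or 3.

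TOP2A, the topoisomerase that untangles sister chromatids, had 492, 460.5 and 456 CPM in UTX_sphere, 549, 584 and 543 in HEAA_sphere and 603, 600.2 and 634 in EV_sphere (log2 fold change -0.38 ± 0.041 SE, edgeR adjusted p = 9.14e-08 for UTX over EV). UTX_sphere was lowest, clear of both other groups. MKI67, the surface protein of mitotic chromosomes widely used as a proliferation marker, had 455, 409 and 431 CPM in UTX_sphere, 456, 474 and 450.4 in HEAA_sphere and 433, 438 and 467 in EV_sphere. It did not pass the threshold between any pair of these groups, with a UTX over EV change of -0.046 ± 0.041 (95% interval -0.13 to 0.035). The groups overlapped. CDK1, the kinase that starts mitosis, had 116, 114 and 113 CPM in UTX_sphere, 130.3, 132 and 129 in HEAA_sphere and 124, 120.3 and 129 in EV_sphere. Its fall in UTX_sphere relative to EV_sphere was small (log2 fold change -0.12 ± 0.043 SE, edgeR adjusted p = 0.0219) and lost its call without EV_sphere replicate 3 or UTX_sphere replicate 3, whereas UTX_sphere fell clearly below HEAA_sphere (log2 fold change -0.19 ± 0.043 SE, edgeR adjusted p = 0.00351). CCNB1, its cyclin partner, had 224, 213 and 220.0 CPM in UTX_sphere, 258, 255 and 262 in HEAA_sphere and 244, 231 and 250.0 in EV_sphere. UTX_sphere lay below both other groups without overlap, by -0.24 ± 0.046 against HEAA_sphere and -0.14 ± 0.046 against EV_sphere (log2 ± SE), and the call against EV_sphere was lost without EV_sphere replicate 3. FOXM1 had 106, 97.0 and 104 CPM in UTX_sphere, 116, 115 and 113 in HEAA_sphere and 118, 109.9 and 121 in EV_sphere. The UTX_sphere values were the lowest (log2 fold change -0.18 ± 0.043 SE, edgeR adjusted p = 0.00131 against EV), a call that scaling by total counts alone ended, as it did for 11 other members in this comparison.

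The 5 genes higher in UTX_sphere than in EV_sphere were BUB3, AURKA, ECT2, NDC80 and TPX2. Their HEAA values, which share the EV_sphere libraries, are given beside them. ECT2, an exchange factor that activates RhoA at the cleavage furrow, had 151, 135 and 141 CPM in UTX_sphere, 155, 167 and 163 in HEAA_sphere and 117, 117 and 119 in EV_sphere. The order was HEAA_sphere, UTX_sphere, EV_sphere from high to low with no overlap, at 0.45 ± 0.047 for HEAA and 0.27 ± 0.048 for UTX over EV_sphere. AURKA, a spindle pole kinase, had 214, 202 and 215 CPM in UTX_sphere, 236, 241 and 232 in HEAA_sphere and 178, 167 and 178 in EV_sphere. It followed the same order without overlap, at 0.44 ± 0.040 for HEAA and 0.27 ± 0.040 for UTX. TPX2, which activates AURKA on spindle microtubules, changed by 0.29 ± 0.043 for HEAA and 0.15 ± 0.043 for UTX, and NDC80, the microtubule-binding subunit of the outer kinetochore, by 0.24 ± 0.057 and 0.18 ± 0.059. The UTX calls of TPX2 and NDC80 were lost without UTX_sphere replicate 1, and that of TPX2 also without EV_sphere replicate 2. NUF2 (the partner of NDC80 in the same complex) changed in the other direction in UTX_sphere, by -0.26 ± 0.054 (edgeR adjusted p = 0.000386).

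**Figure D3:**
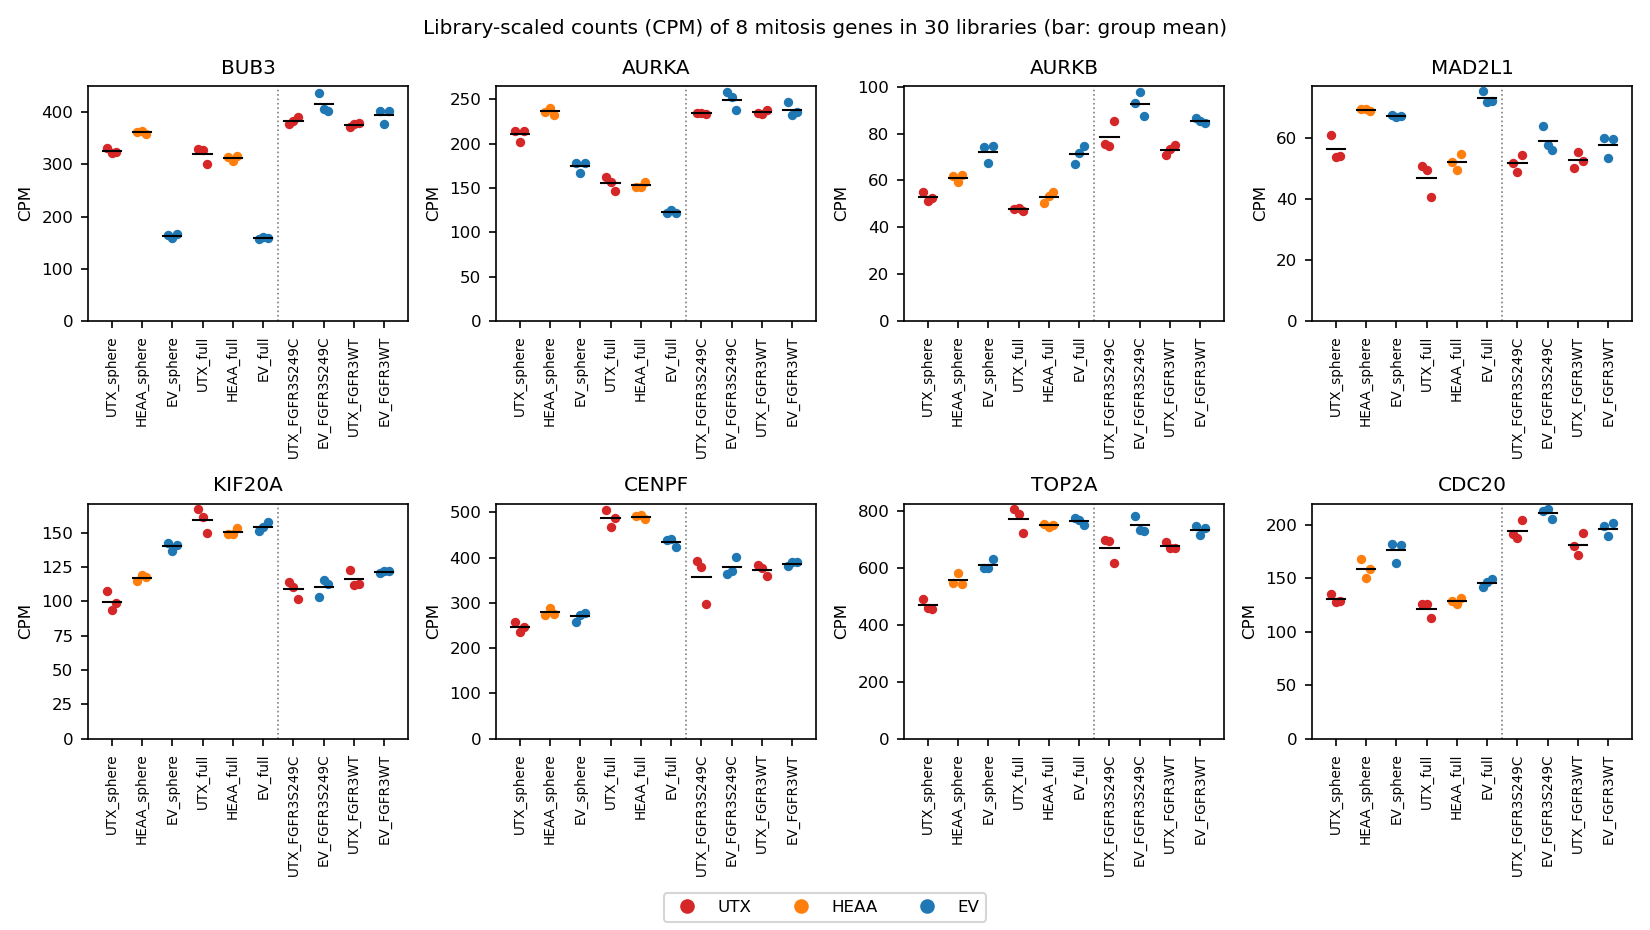
Points give the CPM of 8 mitosis genes in each of the 30 libraries, with a bar at the group mean, for the first experiment left of the dotted line and the second experiment right of it. BUB3 separates UTX and HEAA from EV in the first experiment alone, AURKB is lower in each UTX group than in its EV group, and CENPF and TOP2A are lower in sphere than in full medium.

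In full medium the set as a whole stayed near the empty vector level, and single members moved. In UTX_full 15 of 40 genes were lower than in EV_full and 5 higher, with a median of -0.026. In HEAA_full 11 were lower and 6 higher, with a median of -0.056, and both comparisons share the EV_full libraries. Over all genes 29.2% were lower and 28.4% higher for UTX, and 25.3% and 23.2% for HEAA, so that higher calls were a smaller share of the members (12.5% for UTX and 15% for HEAA) than of all genes, while lower calls were 37.5% and 27.5% of the members. Scaling by total counts alone gave 10 lower and 7 higher for UTX, and 7 lower and 7 higher for HEAA. Without UTX_full replicate 3, 10 members were lower for UTX.

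MAD2L1 had the largest fall, with 50.6, 49.4 and 40.7 CPM in UTX_full, 52.1, 49.4 and 54.6 in HEAA_full and 75.2, 71.8 and 72.2 in EV_full. All UTX_full and HEAA_full values lay far below the EV_full values (log2 fold change -0.64 ± 0.060 SE, edgeR adjusted p = 7.3e-09 for UTX, -0.49 ± 0.060 for HEAA), and UTX_full replicate 3 was the lowest library. AURKB had 47.9, 48.4 and 47.1 CPM in UTX_full, 50.2, 53.5 and 54.9 in HEAA_full and 67.0, 71.9 and 74.5 in EV_full. It was lower with both constructs, without overlap with EV_full (log2 fold change -0.58 ± 0.047 SE, edgeR adjusted p = 8.23e-10 for UTX, -0.43 ± 0.047 for HEAA). Of the other passenger complex subunits, BIRC5 (survivin, -0.20 ± 0.044) and CDCA8 (borealin, -0.22 ± 0.046) were lower in UTX_full than in EV_full, and INCENP, the scaffold of the complex, was at -0.016 ± 0.038 (95% interval -0.091 to 0.059). CCNA2, the cyclin of S phase and early mitosis, changed by -0.25 ± 0.052 for UTX and -0.22 ± 0.052 for HEAA, and CDC20 by -0.26 ± 0.049 and -0.18 ± 0.049.

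CDK1 had 118, 120.1 and 104 CPM in UTX_full, 107, 106 and 108 in HEAA_full and 125, 122 and 125 in EV_full. It was below EV_full with both constructs without overlap, by -0.12 ± 0.043 for UTX, a call lost without UTX_full replicate 3, and by -0.21 ± 0.043 for HEAA. CCNB1 had 235, 235 and 204 CPM in UTX_full, 231, 221 and 231 in HEAA_full and 233, 238 and 238 in EV_full, and did not pass in either comparison (-0.073 ± 0.046 for UTX, 95% interval -0.16 to 0.016). TOP2A had 809, 791 and 723 CPM in UTX_full, 756, 745 and 751 in HEAA_full and 776, 770.5 and 751 in EV_full, also with no call (0.016 ± 0.041 for UTX, 95% interval -0.065 to 0.096). MKI67 had 629.8, 577 and 604 CPM in UTX_full, 630.4, 649 and 635 in HEAA_full and 607, 599 and 585 in EV_full (0.016 ± 0.041 for UTX, 95% interval -0.064 to 0.096). For CCNB1, TOP2A and MKI67 the UTX_full and EV_full values overlapped. FOXM1 had 119, 116 and 110.3 CPM in UTX_full and 134, 136 and 143 in EV_full, without overlap (log2 fold change -0.26 ± 0.042 SE, edgeR adjusted p = 2.19e-05), while its HEAA change was -0.056 ± 0.042 with no call.

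The 5 genes higher in UTX_full than in EV_full were BUB3, AURKA, TPX2, ASPM and CENPF. AURKA had 162, 157 and 146 CPM in UTX_full, 151, 152 and 157 in HEAA_full and 122, 125 and 122 in EV_full. Every UTX_full and HEAA_full value was above every EV_full value (log2 fold change 0.34 ± 0.041 SE, edgeR adjusted p = 3.16e-07 for UTX, 0.32 ± 0.041 for HEAA). TPX2 changed by 0.23 ± 0.043 for UTX and 0.23 ± 0.043 for HEAA, and ASPM, which focuses spindle poles, by 0.22 ± 0.045 and 0.19 ± 0.045. CENPF, a kinetochore protein that binds microtubules, changed by 0.16 ± 0.040 and 0.17 ± 0.040.

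BUB3 (ENSG00000154473, chromosome 10) was the member that changed most in the first experiment. It carries BUB1 and BUBR1 to unattached kinetochores as part of the spindle checkpoint. It had 332, 322 and 324 CPM in UTX_sphere, 363, 364 and 358 in HEAA_sphere and 165, 159 and 166 in EV_sphere. In full medium it had 330.1, 328 and 299.9 CPM in UTX_full, 315, 307 and 315 in HEAA_full and 157, 161 and 158 in EV_full. Levels in the 6 EV libraries were about the same in both media and lay far below the 12 libraries with UTX or HEAA. The log2 fold change over EV was 0.99 ± 0.036 for UTX and 1.14 ± 0.036 for HEAA in sphere medium, and 1.01 ± 0.036 for UTX and 0.98 ± 0.036 for HEAA in full medium (± SE, edgeR adjusted p at most 4.5e-15). UTX and HEAA themselves differed by -0.15 ± 0.036 in sphere medium and 0.031 ± 0.036 in full medium. In the second experiment BUB3 had 377, 383 and 391 CPM in UTX_FGFR3S249C and 436, 407 and 402 in EV_FGFR3S249C, and 371, 378 and 379 in UTX_FGFR3WT and 402, 377 and 403 in EV_FGFR3WT. There it did not pass the threshold after adjustment (-0.11 ± 0.044, 95% interval -0.20 to -0.029, with S249C and -0.069 ± 0.044, 95% interval -0.15 to 0.017, with wild type FGFR3).

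Most genes that lie beside BUB3 on chromosome 10 were also higher, by amounts that differed between genes. Taking the 10 tested protein-coding genes on either side in RefSeq order, a window chosen after the values were seen, 18 of 20 were higher in UTX_sphere than in EV_sphere, 17 in HEAA_sphere, 17 in UTX_full and 17 in HEAA_full. Their median log2 fold change was 1.02, 0.95, 1.10 and 1.05 in that order of comparisons. For UTX_full over EV_full, the 4 nearest neighbours on one side were ACADSB (1.15), IKZF5 (1.10), PSTK (0.96) and C10orf88 (1.06). On the other side the 4 nearest were CPXM2 (0.45, not called), CHST15 (2.23), OAT (3.70) and NKX1-2 (3.25), of which CPXM2 and NKX1-2 averaged 0.340 and 0.278 CPM. The 3 of the 20 that were not called higher were CPXM2, HTRA1 (-0.078) and BTBD16 (0.41). Beyond CTBP2 (0.72), the last gene of the window on that side, EDRF1 (-0.13) and DHX32 (-0.091) were not called and UROS (-0.35) and BCCIP (-0.65) were lower. In the second experiment 19 of these 20 neighbours were tested, and 4 were higher with S249C (median 0.061) and 3 with wild type FGFR3 (median -0.021). DNA copy number was not analysed here, and its part in the BUB3 difference was not tested. The same window around each of the 40 members gave medians from -0.37 to 1.10 in UTX_full over EV_full, with BUB3 at the top (the median over members was -0.073, and 28.4% of all genes were higher). The neighbours of AURKA had a median of 0.25 (12 of 20 higher) and those of TPX2, on the same chromosome 20, of 0.051 (7 higher and 5 lower). In the same comparison the median was 0.53 for MKI67 on chromosome 10 (13 of 20 higher, MKI67 itself 0.016) and 0.48 for UBE2C (11 of 20, -0.057). It was 0.41 for ECT2 (12 of 20, 0.053) and 0.39 for BIRC5 (13 of 20, -0.20). In HEAA_full, UTX_sphere and HEAA_sphere over EV, in that order, the AURKA median was 0.401, 0.432 and 0.378. It was 0.482, 0.382 and 0.354 for MKI67 and 0.409, 0.251 and 0.135 for UBE2C. It was 0.244, 0.198 and 0.194 for ECT2, which was itself higher there, and 0.355, 0.805 and 0.577 for BIRC5. The part of neighbouring genes in the values of these members was not tested.

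**Figure D4:**
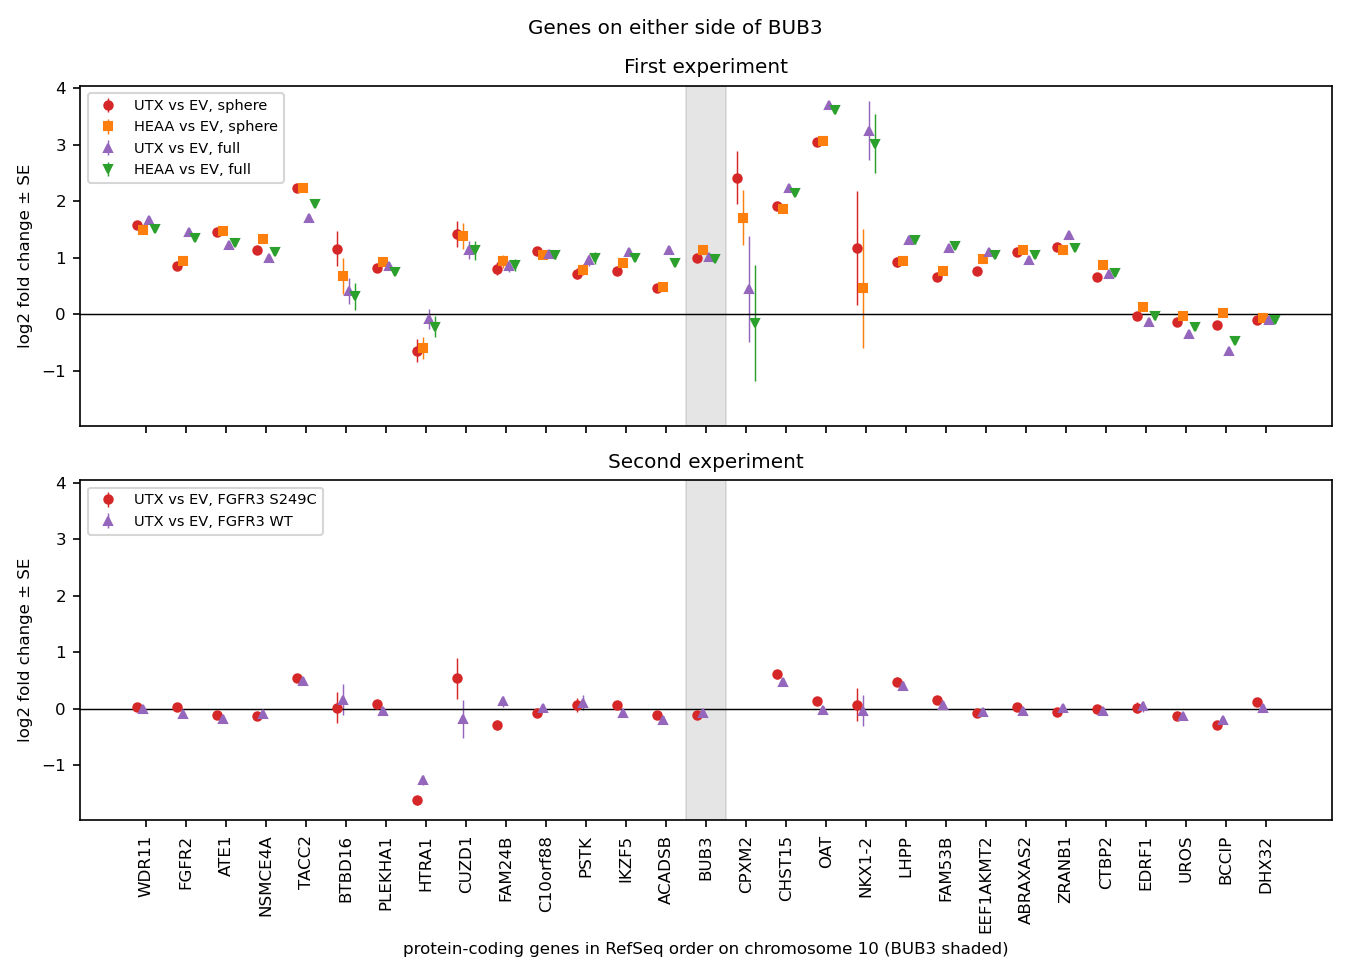
Points give the log2 fold change ± SE of BUB3 (shaded) and of 14 protein-coding genes on either side in their order on chromosome 10, for 4 comparisons of the first experiment (top) and 2 of the second (bottom). From WDR11 to CTBP2 most genes lie above 0 in the top panel, with CHST15, OAT and NKX1-2 highest in UTX over EV in full medium (2.23, 3.70 and 3.25), and the 4 genes after CTBP2 lie between -0.65 (BCCIP, UTX over EV in full medium) and 0.13 (EDRF1, HEAA over EV in sphere medium). In the bottom panel most of the same genes lie near 0.

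With each construct, CENPF, ANLN, TOP2A, MKI67, NDC80, KIF20A and FOXM1 were lower and AURKA and PLK1 higher in sphere than in full medium. In UTX cells 20 genes were lower in sphere than in full medium and 9 higher, in HEAA cells 13 and 22, and in EV cells 17 and 12. The background was 35.4% lower and 35.1% higher of all genes in UTX cells, 36.3% and 34.4% in HEAA cells, and 32.4% and 33.1% in EV cells. In EV cells, which carry no introduced UTX, 5 of 6 central spindle genes and 4 of 6 kinetochore genes were lower, while 3 of 6 entry genes, 3 of 5 checkpoint genes and 2 of 3 anaphase-promoting complex genes were higher. The higher calls depended on scaling. With total counts alone they fell to 4, 13 and 2, and the lower calls were 25, 18 and 28, in UTX, HEAA and EV cells in that order. That scaling moved the median of all genes by -0.13, -0.14 and -0.18 in these comparisons and by 0.11 for UTX_sphere over EV_sphere, whereas median-of-ratios factors moved it by 0.022 at most.

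CENPF (ENSG00000117724, chromosome 1) had the largest difference, with 258, 236 and 247 CPM in UTX_sphere against 505, 467 and 487 in UTX_full, 272, 289.6 and 275 in HEAA_sphere against 493, 493 and 484 in HEAA_full, and 258, 274 and 278 in EV_sphere against 439, 441 and 424 in EV_full. Sphere libraries were below full medium libraries with all 3 constructs without overlap, by -0.98 ± 0.041, -0.81 ± 0.040 and -0.69 ± 0.040 on the log2 scale (± SE). ANLN, an actin-binding scaffold of the contractile ring, had 474, 444 and 462 CPM in UTX_sphere against 769, 702 and 695 in UTX_full, 471, 503 and 476 in HEAA_sphere against 698, 715 and 719 in HEAA_full, and 466, 474 and 471 in EV_sphere against 708, 719 and 712 in EV_full. Again no sphere library reached the full medium level (-0.65 ± 0.038, -0.56 ± 0.038 and -0.60 ± 0.038), while ANLN had no call for UTX or HEAA over EV in either medium. MKI67 changed by -0.48 ± 0.041, -0.47 ± 0.041 and -0.42 ± 0.041, TOP2A by -0.72 ± 0.042, -0.43 ± 0.041 and -0.32 ± 0.041, and NDC80 by -0.45 ± 0.057, -0.28 ± 0.056 and -0.59 ± 0.056, in UTX, HEAA and EV cells in that order. KIF20A was at -0.67 ± 0.046 in UTX cells, -0.36 ± 0.046 in HEAA cells and -0.14 ± 0.045 in EV cells. These 6 genes were lower under every scaling tried.

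AURKA was higher in sphere than in full medium with all 3 constructs, by 0.44 ± 0.041 in UTX cells, 0.63 ± 0.040 in HEAA cells and 0.50 ± 0.041 in EV cells, without overlap and under every scaling tried. PLK1, the polo kinase of mitotic entry, was higher by 0.23 ± 0.049, 0.39 ± 0.048 and 0.38 ± 0.048. TTK, the kinase that starts checkpoint signalling, was at 0.28 ± 0.054, 0.47 ± 0.053 and 0.17 ± 0.052, and the EV value was just below 0 with total counts alone. CDK1 passed in HEAA cells (0.28 ± 0.043), with 0.0065 ± 0.044 in UTX cells and 0.0083 ± 0.043 in EV cells, which both turned negative with total counts alone. FOXM1 was lower in all 3, by -0.17 ± 0.043, -0.21 ± 0.043 and -0.24 ± 0.042. CCNB1 was called in HEAA cells (0.18 ± 0.046) and not in UTX (-0.036 ± 0.046) or EV cells (0.032 ± 0.046), and with total counts alone its EV value was below 0 and its HEAA call was lost.

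The effect of UTX over EV differed between media for 12 members, 10 with a lower value in sphere than in full medium and 2 with a higher one (over all genes, 16.2% and 21.1%). KIF20A differed most, by -0.53 ± 0.065 (edgeR adjusted p = 9.45e-07), followed by ASPM (-0.42 ± 0.064) and TOP2A (-0.40 ± 0.058). MAD2L1 went the other way (0.39 ± 0.086), as its level in UTX cells relative to EV cells was lower in full than in sphere medium. For HEAA over EV 13 members differed, 2 with a lower and 11 with a higher value in sphere medium (over all genes, 14.3% and 18.7%), led by MAD2L1 (0.53 ± 0.084), ECT2 (0.32 ± 0.067) and NDC80 (0.31 ± 0.079). Scaling by total counts alone gave 7 lower and 4 higher for UTX. The lower count for HEAA was 1 without EV_full replicate 1, HEAA_full replicate 3 or HEAA_sphere replicate 1.

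In the cells that carried FGFR3, AURKB was lower with UTX under both forms of the receptor. With S249C, 8 of 40 genes were lower in UTX_FGFR3S249C than in EV_FGFR3S249C and 0 higher (over all genes, 8.62% and 12.9%), with a median of -0.071 against -0.013 over all genes. Scaling by total counts alone gave 19 lower and 0 higher there. With wild type FGFR3, 4 were lower in UTX_FGFR3WT than in EV_FGFR3WT and 0 higher (over all genes, 6.01% and 9.06%), with a median of -0.069 against 0.00071. AURKB had the largest change among the called members in both. It had 75.7, 74.8 and 85.2 CPM in UTX_FGFR3S249C and 93.0, 97.8 and 87.5 in EV_FGFR3S249C (log2 fold change -0.24 ± 0.055 SE, edgeR adjusted p = 0.00571). It had 71.0, 73.3 and 75.1 CPM in UTX_FGFR3WT and 86.5, 85.5 and 84.7 in EV_FGFR3WT (log2 fold change -0.23 ± 0.056 SE, edgeR adjusted p = 0.0118). Neither pair of groups overlapped, although UTX_FGFR3S249C replicate 3 came close to the EV libraries, and the call with wild type FGFR3 was lost without UTX_FGFR3WT replicate 1. The 3 other genes lower in UTX_FGFR3WT were CCNA2 (-0.16 ± 0.040), NUF2 (-0.19 ± 0.047) and KIF2C, a microtubule-depolymerising kinesin (-0.17 ± 0.040), and none of the 4 remained called without UTX_FGFR3WT replicate 1.

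CDK1 had 114, 113 and 120.1 CPM in UTX_FGFR3S249C and 142, 130.3 and 128 in EV_FGFR3S249C (log2 fold change -0.21 ± 0.050 SE, edgeR adjusted p = 0.00748), with the UTX libraries below the EV libraries. CDK1 had 112, 118 and 117 CPM in UTX_FGFR3WT and 131, 121 and 130.0 in EV_FGFR3WT, which did not overlap but missed the threshold (-0.14 ± 0.050, 95% interval -0.24 to -0.040). CCNB1 had 267, 259 and 273 CPM in UTX_FGFR3S249C and 334, 294 and 300.3 in EV_FGFR3S249C (-0.22 ± 0.059), a call lost without EV_FGFR3S249C replicate 1 or UTX_FGFR3S249C replicate 1 or 2. The UTX libraries again lay below the EV libraries. TOP2A had 698, 695 and 617 CPM in UTX_FGFR3S249C and 783, 736 and 733 in EV_FGFR3S249C (-0.16 ± 0.050). Replicate 3 of UTX_FGFR3S249C was the lowest, and without it or without EV_FGFR3S249C replicate 1 the TOP2A call was lost. MKI67 had 605, 579 and 369 CPM in UTX_FGFR3S249C and 407, 532 and 538 in EV_FGFR3S249C, with no call (0.072 ± 0.14, 95% interval -0.21 to 0.35). UTX_FGFR3S249C replicate 3 and EV_FGFR3S249C replicate 1 were low for MKI67, far from the other libraries of their groups. FOXM1 had 181, 179 and 176 CPM in UTX_FGFR3S249C and 173, 187 and 181 in EV_FGFR3S249C, and these overlapped (-0.013 ± 0.045, 95% interval -0.10 to 0.076). The other genes lower in UTX_FGFR3S249C were BIRC5 (-0.21 ± 0.058), MAD2L1 (-0.19 ± 0.064), KIF11 (-0.19 ± 0.045), a kinesin that pushes spindle poles apart, and UBE2C (-0.17 ± 0.049), the ubiquitin-conjugating enzyme of the anaphase-promoting complex. BIRC5, MAD2L1 and UBE2C lost their calls without EV_FGFR3S249C replicate 1 or UTX_FGFR3S249C replicate 1 or 2. The count of lower members was 3 without EV_FGFR3S249C replicate 1 and 4 without UTX_FGFR3S249C replicate 1 or 2, and members called higher numbered 2 without UTX_FGFR3S249C replicate 3 and 1 without EV_FGFR3S249C replicate 2. In the wild type FGFR3 cells the other genes given in every comparison did not pass. CCNB1 had 258.9, 248.9 and 285.8 CPM in UTX_FGFR3WT and 284.6, 261.5 and 279.9 in EV_FGFR3WT (-0.057 ± 0.060, 95% interval -0.17 to 0.060). TOP2A had 691, 669.9 and 671 CPM in UTX_FGFR3WT and 749, 716 and 743 in EV_FGFR3WT (-0.12 ± 0.051, 95% interval -0.22 to -0.021). MKI67 had 602, 563 and 519 CPM in UTX_FGFR3WT and 536, 578 and 572 in EV_FGFR3WT (-0.0010 ± 0.14, 95% interval -0.28 to 0.28), and FOXM1 191, 179 and 176 CPM in UTX_FGFR3WT and 188, 189 and 200.3 in EV_FGFR3WT (-0.082 ± 0.045, 95% interval -0.17 to 0.0067). TOP2A was lower in every UTX_FGFR3WT library than in any EV_FGFR3WT library, and for CCNB1, MKI67 and FOXM1 the groups overlapped.

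Between S249C and wild type FGFR3 few members passed. In UTX cells edgeR called 0 lower and 0 higher, with 1 member at an unadjusted p under 0.05 and 0 calls by DESeq2 (over all genes, 1.34% lower and 1.71% higher). In EV cells 2 were lower and 0 higher (over all genes, 6.45% and 4.31%), namely NUSAP1, a spindle microtubule-bundling protein, and TTK. NUSAP1 had 81.4, 87.5 and 82.7 CPM in EV_FGFR3S249C and 101, 98.2 and 99.4 in EV_FGFR3WT (-0.25 ± 0.061), and TTK had 41.2, 44.3 and 44.4 CPM in EV_FGFR3S249C and 49.1, 47.1 and 52.9 in EV_FGFR3WT (-0.20 ± 0.053). Neither overlapped, and neither call was kept without EV_FGFR3S249C replicate 1, EV_FGFR3WT replicate 1 or EV_FGFR3WT replicate 3, and 1 of the 2 was kept without EV_FGFR3S249C replicate 3. Whether the UTX effect differed between the FGFR3 forms was tested as an interaction, which edgeR called for 0 members in the higher and 0 in the lower direction, with 2 at an unadjusted p under 0.05 and 0 by DESeq2 (over all genes, 0.572% higher and 0.113% lower). The half-width of the 95% interval on a member's log2 fold change ran from 0.0700 to 0.280 for S249C over wild type in UTX cells.

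Other genes of the same machinery were counted in 6 further lists with 102 genes. Over all genes, 11.2% were lower and 8.87% higher in UTX_sphere over HEAA_sphere, and 29.2% and 28.4% in UTX_full over EV_full. In UTX_sphere over HEAA_sphere, the 29 other kinetochore and centromere genes had 15 lower and 0 higher (median -0.16), the 23 other spindle and cytokinesis genes 15 lower and 0 higher (median -0.17), the 8 condensin subunits 8 lower and 0 higher (median -0.19), the 15 subunits of the anaphase-promoting complex 5 lower and 0 higher (median -0.087), the 12 entry regulators 3 lower and 0 higher (median -0.095) and the 15 genes of the MuvB, E2F and RB family 9 lower and 1 higher (median -0.16). The largest kinetochore changes there were MIS18A (-0.27), CENPW (-0.25) and CENPK (-0.23), and the largest spindle changes DEPDC1 (-0.41), CEP55 (-0.26) and KIF15 (-0.23). In UTX_full over EV_full the other kinetochore and centromere genes had 23 lower and 1 higher (median -0.38), with CENPH (-0.74), MIS18A (-0.70) and CENPW (-0.69) changing most, next to 1 lower and 1 higher among the 6 kinetochore genes of the set itself. The MuvB, E2F and RB family had 12 lower and 1 higher (median -0.43) there, led by E2F8 (-0.94), E2F1 (-0.86) and TFDP1 (-0.83). The entry regulators had 7 lower and 3 higher (median -0.21), led by the phosphatase CDC25A (-1.34). Condensin subunits had 6 lower and 0 higher (median -0.265), and subunits of the anaphase-promoting complex 8 lower and 3 higher (median -0.175). The other spindle and cytokinesis genes had 7 lower and 2 higher (median -0.075). Their lower share of 30.4% was near that of all genes.

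DNA replication genes, which act before mitosis in the same cycle, moved further than the mitosis genes in full medium. Of 23 such genes 23 were lower in UTX_full than in EV_full (median -0.91) and 23 in HEAA_full (median -0.60), against medians of -0.026 and -0.056 for the 40 mitosis genes. The largest falls with UTX were GINS2 (-1.32), GMNN (-1.26) and MCM6 (-1.26). In sphere medium 19 of 23 were lower and 1 higher with UTX (median -0.29), and 10 lower and 3 higher with HEAA (median -0.10), where 25.6% and 21.5% of all genes were lower. The medians compare with -0.18 and 0.029 for the mitosis genes. For UTX over HEAA the replication genes had 16 lower and 0 higher (median -0.20) in sphere medium and 20 lower and 0 higher (median -0.39) in full medium, where the mitosis genes had 4 lower and 0 higher (median -0.0085). In the second experiment 11 of 23 were lower with S249C (median -0.14) and 17 with wild type FGFR3 (median -0.17). Of all genes, 8.62% and 6.01% were lower there. In full medium 29.2% of all genes were lower for UTX over EV and 25.3% for HEAA over EV. For UTX over HEAA 11.2% of all genes were lower in sphere medium and 12.4% in full medium. Of 14 tested G1 cyclins and CDK inhibitors, 6 were lower and 6 higher in UTX_full than in EV_full, with CDKN1A, the inhibitor p21, at 1.68.

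**Figure D5:**
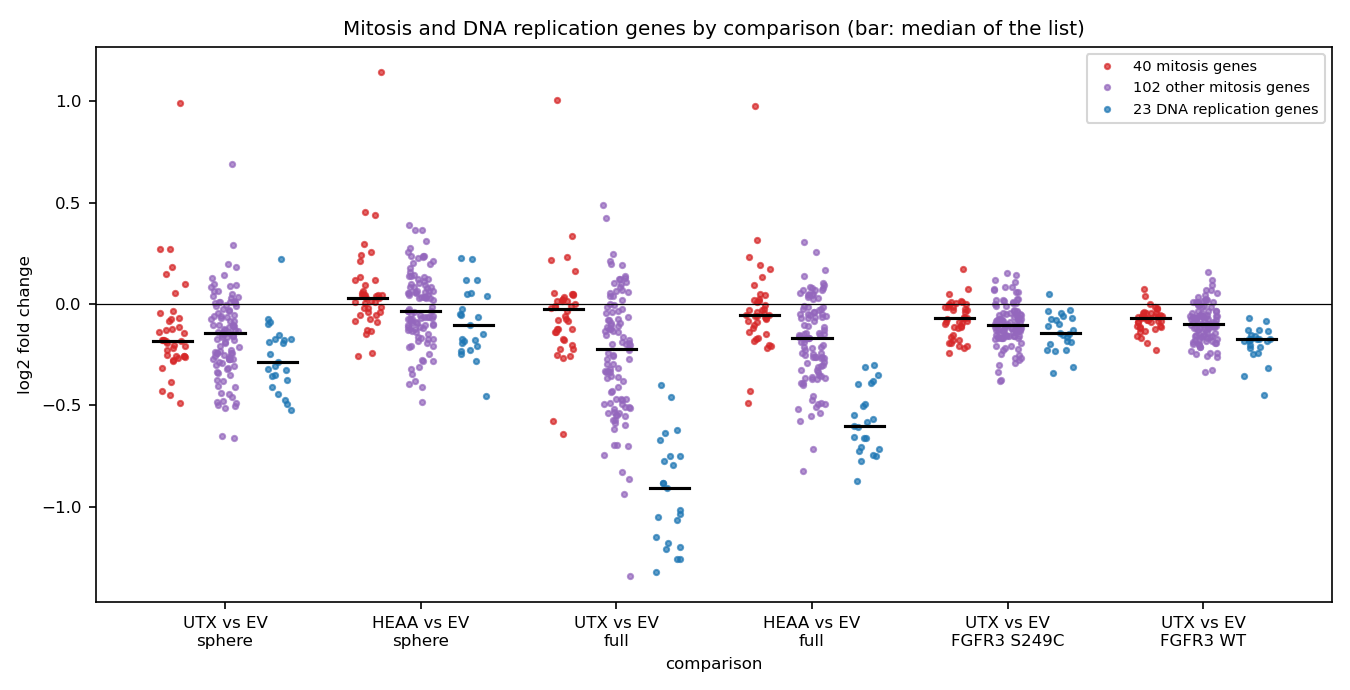
Points give the log2 fold change of 40 mitosis genes (red), 102 other mitosis genes of 6 lists (purple) and 23 DNA replication genes (blue) in 6 comparisons of UTX or HEAA with EV, with bars at the median of each list. In full medium the replication genes have medians of -0.91 (UTX) and -0.60 (HEAA) while the medians of the mitosis genes are -0.026 and -0.056.

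Set beside the promoter windows, members with and without TTTGAA were both mostly lower in UTX_sphere over HEAA_sphere. Of the 25 members with TTTGAA 19 were lower (median -0.18), and of the 8 with a window that lacks it 8 were lower (median -0.22). Over all genes tested, 11.2% were lower in that comparison. For sphere over full medium the counts were 16 lower and 4 higher with TTTGAA against 2 and 3 without it in UTX cells (medians -0.26 and 0.070), 10 and 10 against 1 and 7 in HEAA cells (medians -0.093 and 0.25), and 14 and 6 against 1 and 4 in EV cells (medians -0.14 and 0.076). Of all genes, 35.4% were lower and 35.1% higher in UTX cells, 36.3% and 34.4% in HEAA cells, and 32.4% and 33.1% in EV cells. With 8 genes in the smaller group, the counts of members are given as a description with no test.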

How the data were processed

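Estimated counts per gene (expected counts), which the authors deposited as whole numbers in 1 table per experiment, were used as they stand. Per the submitters' processing notes, Salmon 0.8 and DESeq2 were used with the builds hg19 and GRCh37, and the sources used here name no annotation release. Per the labels' protocols, RNA was extracted with RNeasy, and the kit was TruSeq for the first experiment but NEBNext Ultra II for the second, so levels are not compared across experiments. With edgeR 4.0.16 in R 4.3.3, each experiment was fitted once over all its groups (filterByExpr, TMM, quasi-likelihood), with p-values adjusted by Benjamini-Hochberg over all 19629 or 19399 genes tested and a threshold of 0.05. The SE is the log2 fold change divided by the root of the F value, and interactions are differences of log2 fold changes. Common biological coefficients of variation were 4.58% and 6.05%. Replicates of a group correlated at 0.9961 to 0.9985 (first experiment) or 0.9919 to 0.9982 (second), and no 2 replicates agreed within counting noise. Alternatives were median-of-ratios factors, total counts alone, no filter, DESeq2 1.42.0, fits on the compared groups alone, a replicate block and leaving out each library. For S249C over wild type FGFR3 in UTX cells, same-numbered libraries deviated together from their group means (correlations 0.385, 0.15 and 0.51). Differently numbered libraries were not compared in this way, so a pairing by number is not established there. The block gave 0 member calls, as the unpaired fit did.

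The 40 members and all lists were chosen with earlier results of these data known, and the UTX over HEAA by medium comparison and the window around BUB3 were added after seeing the data. All 40 members may be named, with values per library for those with the largest change past the threshold in a comparison and for CDK1, CCNB1, FOXM1, MKI67 and TOP2A in any case. From each other list at most 3 genes are named per comparison, those with the largest change. The neighbours of BUB3 fall outside this rule and were named after their values were seen. Promoter sequences are RefSeq's on GRCh38.p14, and gene order is that of RefSeq. Since the processing notes name an older build, no coordinates of genes on that build are given, and those of the 4 promoter stretches are RefSeq's on GRCh38.p14.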

Additional observations from a re-analysis of the deposited data

Results flagged for a closer look

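Members are listed here because a test of the difference between media passed in edgeR (Benjamini-Hochberg adjusted p under 0.05 over all genes). Each value is the log2 fold change in sphere medium minus that in full medium. The value for UTX over EV was negative for CCNB2 (-0.19), BUB1 (-0.24), CENPF (-0.29), NUSAP1 (-0.21), ASPM (-0.42), DLGAP5 (-0.33), KIF4A (-0.30), KIF20A (-0.53), PRC1 (-0.17) and TOP2A (-0.40), and positive for MAD2L1 (0.39) and ECT2 (0.22). For HEAA over EV it was positive for CDK1 (0.27), AURKB (0.19), BUB3 (0.17), MAD2L1 (0.53), TTK (0.29), UBE2C (0.20), NDC80 (0.31), SPC25 (0.24), KIF2C (0.22), KIF23 (0.25) and ECT2 (0.32), and negative for ASPM (-0.28) and KIF20A (-0.22). For UTX over HEAA, a comparison added after the values had been seen, it was negative for CDK1 (-0.28), CCNB2 (-0.29), BUB1 (-0.37), BUB3 (-0.18), UBE2C (-0.23), KIF2C (-0.21), NUSAP1 (-0.28), DLGAP5 (-0.35), KIF20A (-0.31) and TOP2A (-0.30). The first 2 of these comparisons share the EV libraries. No explanation of these differences was tested.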

How the results depend on the processing

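Of 3354 checks of a called member under an alternative, 3100 kept the call and 246 lost it with the same sign. In the other 8 the sign changed, whether or not the new value passed the threshold. Median-of-ratios factors kept 259 of 262 calls, DESeq2 258 and the replicate block 255. Outside S249C over wild type FGFR3 in UTX cells, at least 1 same-numbered pair in each comparison had a correlation of deviations of 0.1 or less. No pairing by number was assumed. With the block there were 27 lower members for UTX over EV and 34 for UTX over HEAA in sphere medium, and 15 for UTX over EV in full medium. Total counts alone moved most. They gave 18 higher members for HEAA by medium, 7 lower for HEAA over EV in full medium, 22 higher and 2 lower for HEAA over EV in sphere medium, 15 lower for UTX over EV in sphere medium, 4 higher for UTX by medium and 19 lower for UTX over EV with S249C. For sphere over full medium they gave 2 higher and 28 lower in EV cells, 13 higher in HEAA cells and 4 higher in UTX cells, and turned the direction of AURKB (-0.16), BIRC5 (-0.12), BUB1 (-0.063), BUB1B (-0.077), BUB3 (-0.14), CCNA2 (-0.0029), CCNB1 (-0.15), CDCA8 (-0.16), CDK1 (-0.17), DLGAP5 (-0.033), KIF2C (-0.15), KIF4A (-0.093), PTTG1 (-0.043) and TTK (-0.0091) in EV cells, ECT2 (-0.0012) and HMMR (-0.11) in HEAA cells and BUB3 (-0.096), CDCA8 (-0.017), CDK1 (-0.12) and KIF2C (-0.089) in UTX cells. Members that changed sign but were called in neither fit are left out of this list. Without a filter on low counts the lower members were 1 for HEAA by medium, 2 for HEAA over EV in sphere medium and 6 for UTX by medium. DESeq2 gave 1 higher and 4 lower for S249C over wild type in EV cells, 1 higher for UTX over EV with S249C, and 17 lower for UTX over HEAA by medium. Fits on the compared groups alone gave 4 lower for S249C over wild type in EV cells and 5 lower for UTX over EV with S249C. The cause of these moves was not tested.

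Without 1 library at a time, the lower count was 1 to 2 for HEAA by medium, 2 to 6 for HEAA over EV in sphere medium, 0 to 2 for S249C over wild type in EV cells, 3 to 10 for UTX over EV with S249C, 0 to 4 with wild type FGFR3, 1 to 3 for UTX over HEAA in full medium and 8 to 22 for UTX over HEAA by medium. The higher count was 0 to 2 for UTX over EV with S249C, 3 to 5 for UTX over EV in sphere medium and 0 to 1 for UTX over HEAA in full medium. Where a group kept 2 libraries its spread was taken with that of all groups. The half-width of the 95% interval on a member's log2 fold change was 0.0710 to 0.120 for UTX over EV in sphere medium and 0.0700 to 0.280 with S249C.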
